A study of Mus musculus with 36 samples.

Results

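The genes described are 9 lysine acetyltransferases that act on histones: Ep300, Crebbp, Kat2a, Kat2b, Kat5, Kat6a, Kat6b, Kat7 and Kat8. They were chosen by name, with earlier results of these data known, and each name matched 1 of the 54347 genes in that table. RNA was sequenced from primary mouse cells that had been kept for 6 h with vehicle (PBS, control), with 5 mM β-hydroxybutyrate (βOHB, given as the sodium salt of its R form) or with 5 mM butyrate (sodium salt). One label of the butyrate samples names butyric acid but carries the abbreviation of βOHB beside the dose, and the groups follow the titles, with which the treatment labels match. The 4 cell types were adipocytes grown from the stromal vascular cells of inguinal fat of 3 to 4 male C57Bl/6 mice, macrophages matured from bone marrow of male C57Bl/6 mice, myotubes formed from hindlimb myoblasts of male C57Bl/6 mice, and hepatocytes freed by collagenase perfusion from male C57BL/6NHsd mice. There were 3 libraries in each of 12 groups, no group carried a transgene or a deleted gene, and the ages of the mice were not given in the sources used here. The comparisons ask whether the ketone body βOHB changes gene expression in cultured cells, and how its effect compares with that of butyrate, a fatty acid of short chain and a known inhibitor of histone deacetylases. In structure, βOHB is butyrate with a hydroxyl group on the third carbon. Whether the 3 libraries of a group came from separate animals or only from separate wells is not given, so the p-values measure the spread between these libraries, which may be technical.

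Histone acetyltransferases move the acetyl group of acetyl-CoA onto lysine side chains of histone tails, which loosens the contact between histone and DNA and makes binding sites for bromodomain and YEATS proteins. The modification is taken off again by histone deacetylases, the enzymes that butyrate blocks. The 9 genes belong to 3 families. Ep300 and Crebbp encode p300 and CBP, large coactivators that are recruited by many transcription factors and acetylate histone H3 at enhancers. Kat2a (GCN5) and Kat2b (PCAF) encode the alternative catalytic subunits of the SAGA and ATAC complexes. The MYST family holds Kat5 (TIP60), the catalytic subunit of a complex that also works in DNA repair, Kat6a (MOZ) and Kat6b (MORF), which share the BRPF scaffold proteins, Kat7 (HBO1), which acetylates H3 and H4 near genes and replication origins, and Kat8 (MOF), which acetylates lysine 16 of histone H4.

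Positions follow GENCODE M21 on GRCm38. Ep300 (ENSMUSG00000055024) lies at chr15:81585351-81652077 on the plus strand and Crebbp (ENSMUSG00000022521) at chr16:4081328-4213997 on the minus strand. Kat2a (ENSMUSG00000020918) is a compact gene at chr11:100704746-100712465 on the minus strand, whereas its paralogue Kat2b (ENSMUSG00000000708) covers chr17:53566861-53672720 on the plus strand. Of the MYST genes, Kat5 (ENSMUSG00000024926) lies at chr19:5603014-5610237 on the minus strand, Kat6a (ENSMUSG00000031540) at chr8:22859535-22943259 on the plus strand and Kat6b (ENSMUSG00000021767) at chr14:21481434-21672478 on the plus strand. Kat7 (ENSMUSG00000038909) was found at chr11:95274259-95310246 on the minus strand and Kat8 (ENSMUSG00000030801) at chr7:127912516-127925837 on the plus strand. Exons of Kat5 share 426 bp with Rnaseh2c on the opposite strand, and those of Kat8 share 122 bp with Prss8. Whether the libraries kept strand is not given, so reads from these stretches cannot be assigned to 1 gene with certainty. Likewise, the paralogous pairs can share reads that the estimation step divides between them.

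The RefSeq promoter table for GRCm38.p6 held an entry for 8 of the 9 genes. Kat6a was not among them. The bases before a RefSeq start are shown for Kat2a, Kat6b and Kat8, whose windows are almost or wholly free of annotated exons. These 3 genes differ in base composition. Butyrate lowered them in adipocytes, myotubes and hepatocytes, as it did Ep300, Crebbp, Kat2b, Kat5 and Kat7. The Kat6b window lies inside the span of that gene given above, before an internal start. Capitals mark GC boxes (GGGCGG or CCGCCC) and CCAAT boxes (CCAAT or ATTGG), read on both strands with overlaps counted.
Kat2a, chr11:100712468-100712717, minus strand: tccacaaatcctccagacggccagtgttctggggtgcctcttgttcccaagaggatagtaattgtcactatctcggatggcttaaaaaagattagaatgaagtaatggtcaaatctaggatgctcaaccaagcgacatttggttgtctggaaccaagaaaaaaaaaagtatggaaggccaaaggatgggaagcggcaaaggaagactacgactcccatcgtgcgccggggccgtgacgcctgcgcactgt
Kat6b, chr14:21499520-21499769, plus strand: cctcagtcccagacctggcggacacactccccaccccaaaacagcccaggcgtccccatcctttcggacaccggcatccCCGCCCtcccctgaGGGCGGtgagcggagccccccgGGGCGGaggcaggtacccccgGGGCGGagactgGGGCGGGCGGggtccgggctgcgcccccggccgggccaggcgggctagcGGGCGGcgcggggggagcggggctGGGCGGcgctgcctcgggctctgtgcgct
Kat8, chr7:127912267-127912515, plus strand: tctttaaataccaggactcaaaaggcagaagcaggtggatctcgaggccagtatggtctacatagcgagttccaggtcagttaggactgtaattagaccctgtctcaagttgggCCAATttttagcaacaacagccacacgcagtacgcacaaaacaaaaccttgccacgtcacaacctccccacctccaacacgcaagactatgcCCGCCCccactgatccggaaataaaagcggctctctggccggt
The GC content of these upstream windows was 78.8% for Kat6b, 51.2% for Kat8 and 48.8% for Kat2a, where the median over 32851 promoter windows of the same 250 bases was 52.4%. The Kat6b window held 8 GC boxes, that of Kat8 held 1, and that of Kat2a held none. Across the first window of the 8 genes, 4 held a GC box and 4 a CCAAT box, beside 32.7% and 33.8% of all windows. The first windows of Ep300 and Crebbp, each with a GC box, lie wholly within annotated exons. Those of Kat2b, Kat5 and Kat7 do so in part. No window of the 8 held a TATA box (TATAAA or TTTATA, in 12.4% of all windows) or a cAMP response element (TGACGTCA, in 1.5%), and 1, that of Kat5, held an E box (CACGTG, in 6.0%). These matches describe the letters and do not show a bound factor.

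Depth was 18366289 to 23221473 estimated counts per library (median 22177562), and the 9 genes received from 128 to 5502 estimated counts in a library, so that all 9 passed the filter on low counts. Values are given as CPM (counts scaled to a fixed library total) after TMM scaling. In the control libraries the markers of each labelled cell type were the highest there: 6 adipocyte markers summed to 7898 to 8588 CPM in adipocytes, 8 macrophage markers to 18141 to 18331 CPM in macrophages, 7 myotube markers to 22269 to 27870 CPM in myotubes and 6 hepatocyte markers to 38552 to 40086 CPM in hepatocytes. The adipocyte cultures also held RNA of 5 fibroblast markers (5979 to 6781 CPM) and of the macrophage markers (345 to 414 CPM). Macrophage and myotube controls held fibroblast-marker RNA too, mostly of Col1a1 (means of 1376 and 779 CPM) and Col3a1 (167 and 406 CPM). The means of Pdgfra, Dcn and Thy1 were at most 32.6 CPM there. In myotubes the summed macrophage markers ranged from 136 to 362 CPM in control, from 50.6 to 132 CPM under βOHB and from 19.2 to 90.1 CPM under butyrate, and the hepatocyte markers, at most 0.044 CPM in the myotube controls, reached 32.3 to 575 CPM under butyrate and 0 to 24.7 CPM under βOHB, where 1 of the 6 was called higher. Of the myotubes' own markers 4 of 7 fell with butyrate (sum 14130 to 20314 CPM), as did 3 of 4 proliferation markers, from sums of 33.8 to 73.5 CPM to sums of 15.9 to 21.1 CPM. In macrophages 4 proliferation markers summed to 1395 to 1429 CPM in control and to 558 to 657 CPM with butyrate, and 3 of the 8 macrophage markers fell (sum 11346 to 11953 CPM with butyrate). The endothelial markers Pecam1 and Cdh5 fell in macrophages too, from means of 4.30 and 6.86 CPM to 2.07 and 2.47 CPM. All 7 myotube markers rose there, from sums of 5.81 to 12.3 CPM to sums of 19.0 to 59.0 CPM. In hepatocytes all 4 endothelial markers fell with butyrate, from sums of 64.6 to 72.1 CPM to sums of 19.7 to 23.3 CPM, and 2 of 4 proliferation markers rose, the sum from 7.50 to 12.5 CPM in control to 17.5 to 19.5 CPM. In adipocytes 4 of 6 adipocyte markers (sum 6251 to 7618 CPM with butyrate) and 2 of 4 endothelial markers fell, the latter list from sums of 176 to 202 CPM to sums of 117 to 134 CPM. The part of these shifts in the results was not tested. The third butyrate library of myotubes stood apart from its group over all genes, with a chi-square per gene of 37.0 and 41.7 against the other 2 libraries, which differed from each other by 8.57, and these were the highest values of any replicate pair. Without it 8 of the 9 genes were called lower with butyrate in myotubes in place of 9, Kat6a being lost (-0.21, FDR = 0.0629), and 9 were lower than with βOHB, as with it. In bulk RNA, fewer cells of a type and less RNA per cell cannot be told apart.

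Per kilobase of exon, Kat2b or Kat7 was the most abundant of the 9 genes in the control libraries of each cell type and Kat6b the least. In hepatocytes Kat2b stood first, at 25.7 ± 2.26 CPM per kilobase (SD, n = 3), ahead of Kat2a at 16.7 ± 0.248. Kat7 was the first in macrophages and in myotubes, at 17.0 ± 0.885 and 12.9 ± 0.142 CPM per kilobase. Kat6b lay between 1.28 and 1.76 CPM per kilobase in all 4 cell types. These levels depend on the length used: with the longest transcript in place of all exons, Kat6b stayed last in every cell type, whereas Kat7 took the first place in adipocytes, and with the median transcript length, which is short for genes with many fragments annotated, Ep300 and Kat2b took the first 2 places in each cell type.

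**Figure D1:**
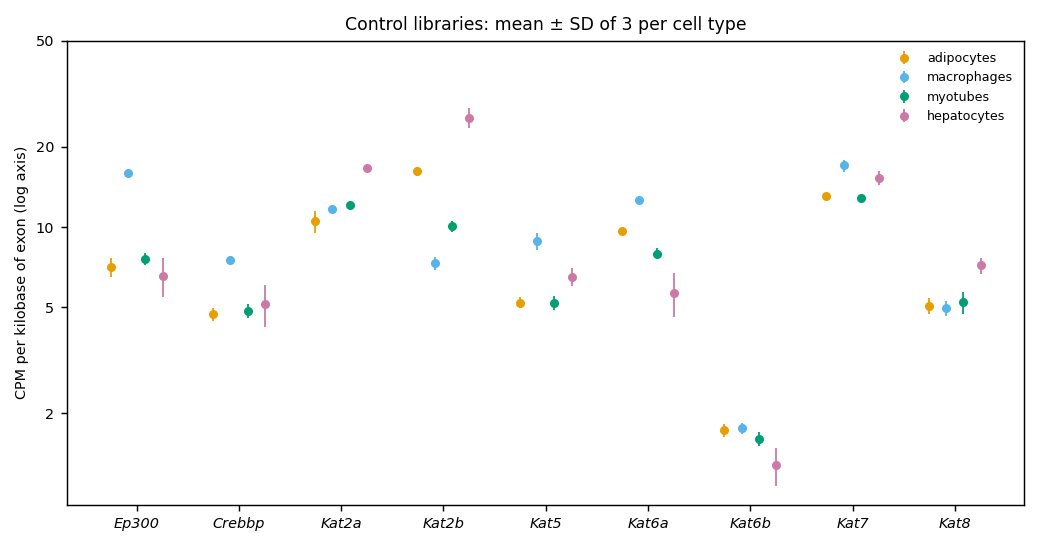
Levels of the 9 genes in control libraries, in CPM per kilobase of exon on a log axis; points are means of 3 libraries, bars are SD and colours are cell types. Kat2b spreads widest, from 7.32 in macrophages to 25.7 in hepatocytes, and Kat6b is the lowest gene in every cell type.

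The control levels of the 9 genes were compared between cell types. Of the 9, 7 differed between macrophages and adipocytes (77.5% of all 15340 tested genes did), 3 between myotubes and adipocytes (78.2% of all genes), 7 between hepatocytes and adipocytes (81.1%), 6 between myotubes and macrophages (82.2%), 9 between hepatocytes and macrophages (82.1%) and 8 between hepatocytes and myotubes (86.6%), at an FDR below 0.05 in edgeR's quasi-likelihood test. The share of members was 77.8%, 33.3%, 77.8%, 66.7%, 100% and 88.9% in this order. A share near or below that of all genes is no result about the members. Adipocytes and macrophages were treated in DMEM with fetal calf serum, myotubes in Ham's nutrient mix with horse serum and hepatocytes in Williams E medium. Where myotubes or hepatocytes are compared with another cell type, cell type and medium cannot be told apart. This holds for the comparisons of responses below too.

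Ep300 was highest in macrophages, with 228, 232 and 223 CPM in the control libraries, above every other control library of the series. Myotubes, adipocytes and hepatocytes followed with means of 108 ± 5.73, 101 ± 8.16 and 93.6 ± 15.7 CPM (SD, n = 3). Neighbours in this order did not differ beyond their spread (FDR = 0.265 and 0.269), and the step from macrophages to myotubes was 1.07 on the log2 scale (FDR = 1.04e-12). Crebbp had the same first place, with 102 ± 2.09 CPM in macrophages and 63.7 to 69.4 CPM on average in the other 3 cell types, which did not differ from their neighbours.

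Kat2b was the member with the widest spread. Its control libraries held 113, 129 and 134 CPM in hepatocytes, 82.1, 77.2 and 77.1 CPM in adipocytes, 46.4, 50.3 and 50.5 CPM in myotubes and 34.6, 34.2 and 38 CPM in macrophages. None of these 4 groups overlapped, and each step in the order passed the test (FDR between 5.07e-09 and 8.55e-06). Its paralogue Kat2a was also highest in hepatocytes, at 58.1 ± 0.864 CPM, but ranged only down to 36.5 ± 3.46 CPM in adipocytes. The step between macrophages and adipocytes (0.15, FDR = 0.0419) was lost in 5 of the 6 fits that left out 1 of these libraries, down to 0.095 (FDR = 0.249) without adipocyte control replicate 2.

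Of the MYST genes, Kat6a followed the order macrophages (116 ± 2.61 CPM), adipocytes (88.6 ± 2.06 CPM), myotubes (72.9 ± 3.42 CPM) and hepatocytes (51.8 ± 9.72 CPM), and each step passed the test. Kat6b was lower in hepatocytes than in the other 3 cell types, which did not differ from their neighbours. Hepatocyte control replicate 1 held the lowest hepatocyte control value of Ep300, Crebbp, Kat2b, Kat6a, Kat6b and Kat7. Without this library the hepatocyte level of Ep300 was no longer below that of myotubes (-0.080, FDR = 0.350, against -0.21, FDR = 0.0261, with it), that of Kat7 no longer differed from macrophages (-0.10, FDR = 0.153), that of Crebbp rose above adipocytes (0.24, FDR = 0.0117) and myotubes (0.20, FDR = 0.0348), and the Kat6b difference from myotubes shrank from -0.33 to -0.21. The Ep300 call was also lost without myotube control replicate 3 (-0.17, FDR = 0.111) and the Kat7 call without macrophage control replicate 1 (-0.12, FDR = 0.114). Kat5 was highest in macrophages (31.1 ± 2.28 CPM), then hepatocytes (22.9 ± 1.83 CPM), and not different between adipocytes and myotubes (FDR = 0.995). Kat7 lay between 71.2 and 94.3 CPM on average, and Kat8 was higher in hepatocytes than in the other 3 cell types (20.8 ± 1.44 CPM against means of 14.3 to 15.1 CPM). With library totals in place of TMM the small excess of Kat7 in hepatocytes over adipocytes and over myotubes turned to -0.017 and -0.0019.

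Butyrate lowered nearly all of the 9 genes in all 4 cell types, and raised none. In adipocytes and in myotubes 9 of 9 fell, and in macrophages and in hepatocytes 8 of 9, with Kat2a the exception in macrophages and Kat6a in hepatocytes. The largest falls, of more than 1 on the log2 scale, were those of Ep300 and Crebbp in every cell type, of Kat2b in adipocytes and hepatocytes, of Kat6b in adipocytes, and of Kat2a and Kat5 in hepatocytes. Kat6a had the smallest fall in adipocytes, macrophages and myotubes among the genes called there.

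These counts stand against a broad response. At an FDR below 0.05 butyrate changed 61% of all tested genes in adipocytes (30.3% lowered, 30.7% raised), 65% in macrophages (33.2% lowered, 31.9% raised), 66.5% in myotubes (33.4% lowered, 33.1% raised) and 63.5% in hepatocytes (32.4% lowered, 31% raised). The median log2 fold-change of the 9 genes was -0.71 in adipocytes, -0.60 in macrophages, -0.69 in myotubes and -1.24 in hepatocytes, whereas that of all tested genes was 0 in the first 3 and -0.0083 in hepatocytes. All 3 butyrate libraries lay below all 3 control libraries for 9 of 9 genes in adipocytes (33.6% of all genes), 9 in macrophages (37.3%), 9 in myotubes (32.5%) and 8 in hepatocytes (35.5%). Scaled by library totals alone, the median of all genes stood at 0.073, 0.20, 0.13 and 0.013 in these cell types, butyrate then raised 66.7% of the genes it changed in macrophages (49.0% with TMM) and 61.8% in myotubes (49.8% with TMM), and it lowered 8, 6, 7 and 8 of the 9 genes and still raised none, with Kat6a in macrophages at 0.0059.

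**Figure D2:**
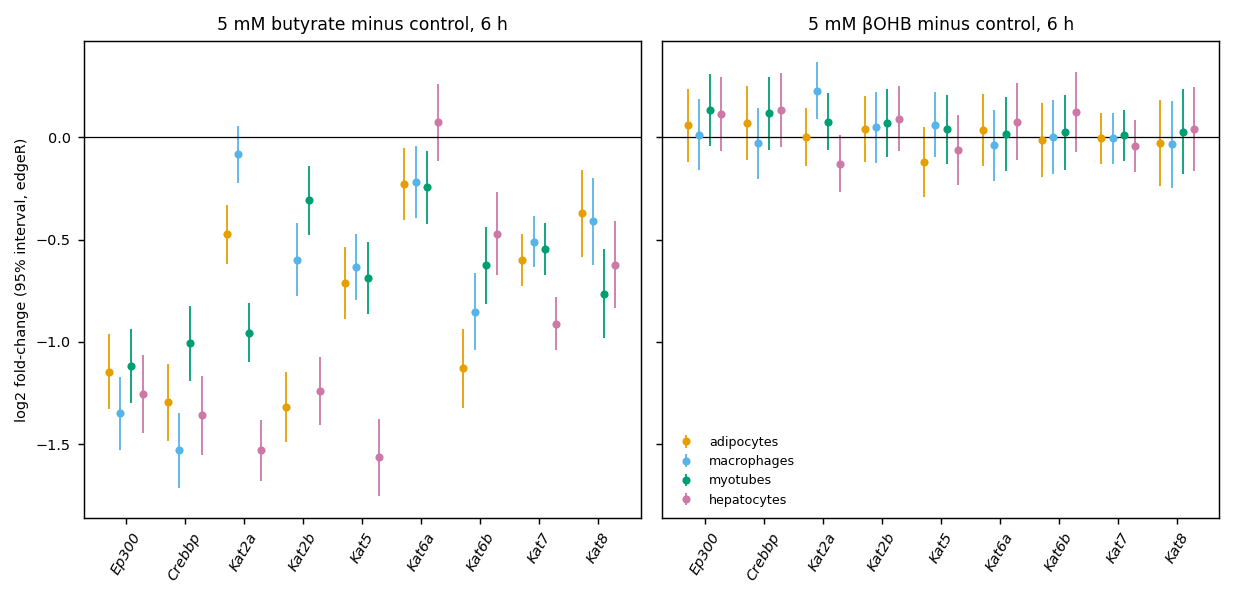
Log2 fold-change of each gene from its own cell type's control, for butyrate (left) and βOHB (right); bars are 95% intervals from edgeR and colours are cell types. Butyrate effects run from -1.57 (Kat5 in hepatocytes) to 0.074 (Kat6a in hepatocytes), and βOHB effects stay between -0.13 and 0.23.

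Of the coactivator pair, Ep300 fell to less than 50% of control in each cell type. In adipocytes its control libraries held 110.2, 96.4 and 95.7 CPM and its butyrate libraries 44.9, 44.7 and 47.0 CPM. In macrophages, where it started highest, 223 to 232 CPM became 79.9 to 96.8 CPM. Myotubes went from 105, 105 and 115 CPM to 51.3, 51.0 and 47.6 CPM and hepatocytes from 75.6, 104 and 101 CPM to 38.3, 38.8 and 40.7 CPM. No control and butyrate libraries overlapped, and the butyrate libraries of macrophages stayed above those of the other cell types. The log2 fold-changes were -1.15 ± 0.09 (FDR = 2.8e-12) in adipocytes, -1.35 ± 0.087 (FDR = 2.51e-14) in macrophages, -1.12 ± 0.089 (FDR = 4.17e-12) in myotubes and -1.25 ± 0.093 (FDR = 4.44e-13) in hepatocytes, as estimate ± SE from edgeR. A difference among cell types was not called (range 0.23, FDR = 0.276).

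Crebbp fell alongside it. Its libraries went from 104, 100.5 and 101 CPM to 34.4, 37.8 and 33.4 CPM in macrophages, the deepest fall of the gene at -1.53 ± 0.09 (SE), and 575 of the 15340 tested genes had a lower log2 fold-change there. In myotubes, 61.4, 67.5 and 68.3 CPM became 34.0, 33.9 and 30.1 CPM, the smallest fall, at -1.01 ± 0.091. Adipocytes and hepatocytes lay between, at -1.30 ± 0.093 and -1.36 ± 0.094. The difference among cell types passed the test (FDR = 0.00474): relative to the mean of the other 3 cell types the response was -0.31 in macrophages (FDR = 0.0165) and 0.39 in myotubes (FDR = 0.0034).

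The SAGA and ATAC catalytic subunits differed most from cell type to cell type. In hepatocytes Kat2a dropped from 58.5, 57.1 and 58.6 CPM to 19.3, 19.3 and 21.8 CPM, a log2 fold-change of -1.53 ± 0.073 (FDR = 1.77e-17). In macrophages 39.8, 39.9 and 42.2 CPM in control stood beside 38.2, 37.6 and 39.4 CPM under butyrate: the groups did not overlap, but the difference of -0.083 ± 0.068 missed the threshold (FDR = 0.299, 95% interval -0.22 to 0.057). Myotubes and adipocytes lay between these ends. Myotubes went from 40.4, 43.3 and 42.2 CPM to 22.5, 21.6 and 20.9 CPM (-0.95 ± 0.071), and adipocytes from 40.3, 33.4 and 35.9 CPM to 27.7, 25.6 and 25.7 CPM (-0.47 ± 0.07). With a range of 1.45 on the log2 scale (FDR = 1.39e-12), Kat2a had the widest differences of the 9 genes.

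Kat2b fell in all 4 cell types, but its order was another. The falls were large in adipocytes, from 82.1, 77.2 and 77.1 CPM to 33.2, 32.1 and 29.6 CPM (-1.32 ± 0.083), and in hepatocytes, from 113, 129 and 134 CPM to 52.6, 54.8 and 51.5 CPM (-1.24 ± 0.081). In macrophages they were smaller, from 34.6, 34.2 and 38 CPM to 24.3, 23.4 and 23.0 CPM (-0.60 ± 0.087). Myotubes showed the smallest change, from 46.4, 50.3 and 50.5 CPM to 43.2, 43.3 and 32.4 CPM (-0.31 ± 0.083, FDR = 0.00173). The third butyrate library of myotubes was the low one, and without it the change was -0.18 (FDR = 0.0327). With library totals in place of TMM the call was lost (-0.17, FDR = 0.0648). Relative to the mean of the other cell types, the Kat2b response was -0.60 in adipocytes and 0.75 in myotubes (FDR = 1.02e-05 and 2.24e-07).

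**Figure D3:**
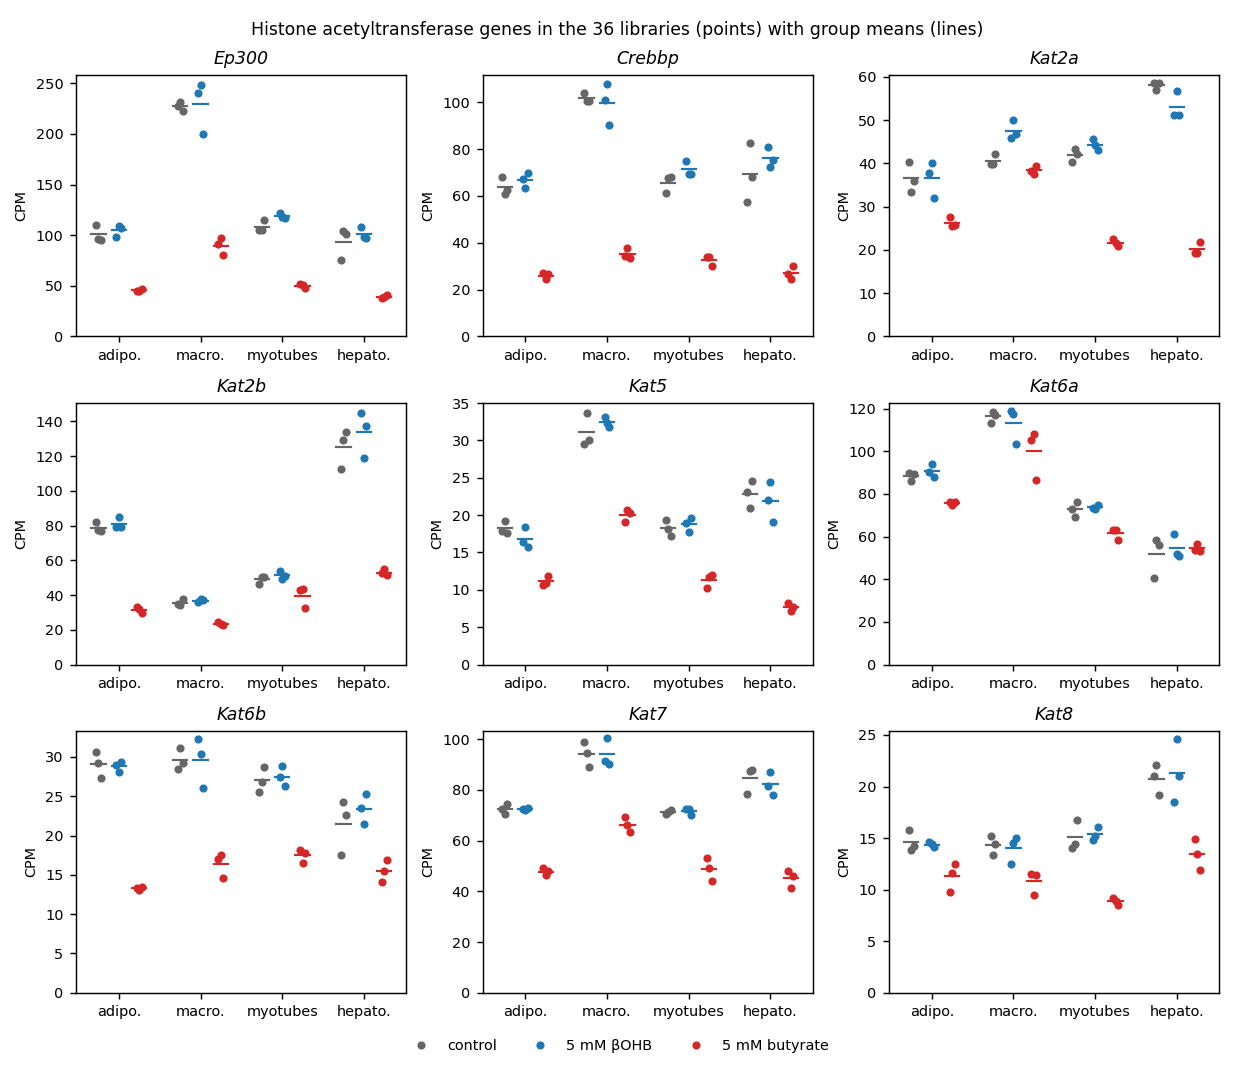
CPM of each gene in every library; points are libraries, short lines are means of 3, and colours are control, βOHB and butyrate, with cell types along the x axis and each y axis starting at 0. Ep300 sits at 223 to 232 CPM in macrophage controls and at 79.9 to 96.8 CPM with butyrate, whereas the Kat2a values of macrophages with butyrate lie just under the controls and Kat6a in hepatocytes overlaps.

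Among the MYST genes, Kat5 and Kat7 fell in every cell type and most in hepatocytes. For Kat5, 23.1, 20.9 and 24.5 CPM in hepatocyte controls became 8.27, 7.23 and 7.69 CPM, 33.8% of the control mean and a log2 fold-change of -1.57 ± 0.093 (FDR = 2.74e-15), the deepest of any of the 9 genes in any cell type. The other cell types held -0.71 ± 0.086 (adipocytes), -0.63 ± 0.079 (macrophages) and -0.69 ± 0.086 (myotubes), and relative to their mean the hepatocyte response was -0.89 (FDR = 3.24e-08). Kat7 went from 78.5, 87.6 and 88.1 CPM to 47.9, 41.3 and 46.0 CPM in hepatocytes (-0.91 ± 0.064). In the other 3 cell types it fell by 0.51 to 0.60 on the log2 scale. Butyrate libraries of Kat7 never reached a control library of the same cell type, nor did those of Kat5.

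The pair Kat6a and Kat6b parted under butyrate. Kat6b fell in each cell type. Adipocytes went from 30.7, 29.3 and 27.3 CPM to 13.4, 13.0 and 13.5 CPM (-1.13 ± 0.094) and hepatocytes from 17.6, 24.2 and 22.6 CPM to 14.1, 15.5 and 16.9 CPM (-0.47 ± 0.099), while the log2 fold-change was -0.85 ± 0.092 in macrophages and -0.62 ± 0.092 in myotubes. By the mean over the 4 cell types Kat6a changed least of the 9 genes, although in macrophages Kat2a changed less. In adipocytes 89.9, 86.2 and 89.6 CPM became 76.2, 74.8 and 76.0 CPM (-0.23 ± 0.087, FDR = 0.0245), and in myotubes 73.0, 69.4 and 76.2 CPM became 63.1, 63.2 and 58.3 CPM (-0.24 ± 0.088, FDR = 0.0159). Macrophages went from 113, 118 and 117 CPM to 105, 108 and 86.5 CPM (-0.22 ± 0.086, FDR = 0.0269), where the third butyrate library was the low one. These 3 calls were lost when 1 library was left out, in 3 of 6 such fits in adipocytes, 3 in macrophages and 2 in myotubes, and without macrophage butyrate replicate 3 the value there was -0.10 (FDR = 0.330). With library totals in place of TMM all 3 were lost, at -0.14 in adipocytes (FDR = 0.165), 0.0059 in macrophages (FDR = 0.979) and -0.11 in myotubes (FDR = 0.271). Hepatocytes overlapped, with 40.7, 58.6 and 56.2 CPM in control and 53.8, 56.6 and 53.4 CPM under butyrate (0.074 ± 0.092, FDR = 0.503). Without hepatocyte control replicate 1 this value was -0.072, and the excess of the hepatocyte response over the mean of the other cell types (0.30, FDR = 0.0174) became 0.16 (FDR = 0.159), and without butyrate replicate 2 the call was lost at 0.28.

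Kat8, which had the lowest control mean in CPM of the 9 genes in each cell type, fell in all 4 cell types, most in myotubes, from 14.1, 14.4 and 16.7 CPM to 9.23, 8.90 and 8.50 CPM (-0.76 ± 0.11), and least in adipocytes, from 15.8, 13.8 and 14.3 CPM to 9.76, 11.6 and 12.5 CPM (-0.37 ± 0.10, FDR = 0.00278). The groups did not overlap in any cell type. Macrophages and hepatocytes stood at -0.41 ± 0.10 and -0.62 ± 0.10. With library totals in place of TMM the macrophage call was lost (-0.19, FDR = 0.104). The difference among cell types, of 0.39 between the ends, missed the threshold (FDR = 0.0585).

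Tested as an interaction, the butyrate response differed among the 4 cell types for 6 of the 9 genes (Crebbp, Kat2a, Kat2b, Kat5, Kat6b and Kat7), beside 74.5% of all tested genes, a background too high for the count to say anything about the members. Set against the mean of the other 3 cell types, 3 of 9 responses differed in adipocytes (32.9% of all genes), 4 in macrophages (39.9%), 4 in myotubes (42%) and 6 in hepatocytes (46.3%). The 6 in hepatocytes were 4 deeper falls (Kat2a at -1.03, Kat5 at -0.89, Kat2b at -0.50 and Kat7 at -0.36) and 2 values above the mean of the other cell types, a smaller fall of Kat6b (0.40) and Kat6a, which was not called against control there (0.30). Without the third butyrate library of myotubes the count there was again 4, but Kat5 was lost (0.24, FDR = 0.0801) and Kat7 gained (0.20, FDR = 0.0276), and the adipocyte count became 4. In macrophages the Kat2a response was smaller by 0.90, with Kat2b and Kat5 also smaller by 0.36 and 0.35.

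Under βOHB none of the 9 genes passed the test in any cell type by edgeR, limma-voom or DESeq2. At an unadjusted p below 0.05 the edgeR count was 0 in adipocytes, 1 in macrophages, 0 in myotubes and 0 in hepatocytes, and limma-voom and DESeq2 gave the same counts. Of all tested genes, edgeR called 0.00652% in adipocytes, 0% in macrophages (358 at an unadjusted p below 0.05, and 0 and 2 called by limma-voom and DESeq2), 2.91% in myotubes and 0.00652% in hepatocytes. The 36 effects on the 9 genes lay between -0.13 and 0.23 on the log2 scale, and all their 95% intervals between -0.29 and 0.37, of which 35 held 0.

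The exception was Kat2a in macrophages, which held 45.8, 50.2 and 46.9 CPM under βOHB beside 39.8, 39.9 and 42.2 CPM in control. All 3 βOHB libraries lay above all controls, and the log2 fold-change was 0.23 ± 0.068 (unadjusted p = 0.00229 in the edgeR fit, FDR = 1), so it failed the correction. In hepatocytes the βOHB libraries of Kat2a, at 51.3, 56.8 and 51.3 CPM, lay below all controls (-0.13 ± 0.068, FDR = 0.944). In myotubes Ep300 and Crebbp lay above all controls, at 122, 118 and 117 CPM and 75.2, 69.5 and 69.5 CPM (0.14 ± 0.087 and 0.12 ± 0.087, FDR = 0.527 and 0.604). Groups without overlap were thus found for 0 of 9 genes in adipocytes (12.7% of all genes, either direction), 1 in macrophages (11.1%), 2 in myotubes (22.9%) and 1 in hepatocytes (6.71%). A difference of the βOHB response among cell types was called for 0 of the 9 genes by edgeR, limma-voom and DESeq2 (1 at an unadjusted p below 0.05 in each, beside 0.978% of all genes called by edgeR).

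Compared directly at the same dose and time, butyrate left the 9 genes lower than βOHB did. Of the 36 differences, with p-values adjusted over all tested genes of a comparison, 34 passed: 9 of 9 in adipocytes (29.5% of all genes were lower with butyrate), 8 in macrophages (32.8%), 9 in myotubes (32.9%) and 8 in hepatocytes (33%). These differences use the same butyrate libraries as the comparison with control and are not independent of it. The largest differences were those of Kat5 in hepatocytes (-1.5 ± 0.092) and Crebbp in macrophages (-1.5 ± 0.09). Kat2a in macrophages, which butyrate did not lower against control past the threshold, was lower with butyrate than with βOHB (-0.31 ± 0.068, FDR = 0.000201). The 2 that missed the threshold were both Kat6a, with -0.18 ± 0.086 in macrophages (FDR = 0.0689, 95% interval -0.35 to -0.0034) and -0.0024 ± 0.091 in hepatocytes (95% interval -0.19 to 0.18).

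The balance within each paralogous pair was followed as the log2 ratio of the estimated counts in the same library, which does not depend on library scaling, though it does carry the lengths of the transcripts. Butyrate shifted the balance of Kat6b to Kat6a toward Kat6a in every cell type. The log2 ratio went from -1.55, -1.56 and -1.72 in adipocyte controls to -2.51, -2.52 and -2.49 with butyrate, and from -2.0, -1.92 and -2.0 to -2.63, -2.63 and -2.57 in macrophages. In myotubes -1.52, -1.37 and -1.41 became -1.79, -1.94 and -1.71, and in hepatocytes -1.21, -1.27 and -1.31 became -1.93, -1.87 and -1.65. All 12 butyrate libraries lay below the controls of their cell type, and the mean shift over the cell types was -0.61 (two-sided exact permutation test within cell types, p = 1.25e-05, the smallest that its 160000 exchanges can give; adjusted p = 7.5e-05 over 6 tests).

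For Kat2b to Kat2a the cell types moved in opposite directions. The log2 ratio fell with butyrate in adipocytes, from 1.03, 1.21 and 1.10 to 0.26, 0.33 and 0.20, and in macrophages, from -0.20, -0.22 and -0.15 to -0.65, -0.69 and -0.78. It rose in myotubes, from 0.20, 0.22 and 0.26 to 0.94, 1.00 and 0.63, and in hepatocytes, from 0.95, 1.18 and 1.19 to 1.44, 1.51 and 1.24. Butyrate and control libraries overlapped in none of the 4 cell types. The shifts were -0.85, -0.51, 0.63 and 0.29, so that their mean of -0.11 did not pass the test (exact permutation p = 0.445, adjusted p = 0.808). With 3 libraries against 3, an exact permutation test in a single cell type cannot go below p = 0.1. Ep300 to Crebbp shifted by 0.082 on average (exact permutation p = 0.0513, adjusted p = 0.154), with 0.15 in adipocytes, 0.18 in macrophages and 0.11 in hepatocytes but -0.11 in myotubes. Summarised by the median over cell types it was 0.13 (unadjusted exact permutation p = 0.00539), and without single libraries the unadjusted p of the mean ran from 0.0235 to 0.103, so the call depends on these choices. Under βOHB the mean shifts of the 3 ratios were 0.0069 to 0.019, none past the test (adjusted p = 0.808 for each, exact permutation). For Kat2b to Kat2a this mean joins opposite values, 0.039 in adipocytes, -0.18 in macrophages, -0.0076 in myotubes and 0.22 in hepatocytes. The macrophage libraries with βOHB, at -0.35, -0.41 and -0.34, lay below all macrophage controls, whereas those of hepatocytes, at 1.50, 1.06 and 1.42, overlapped with theirs.

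**Figure D4:**
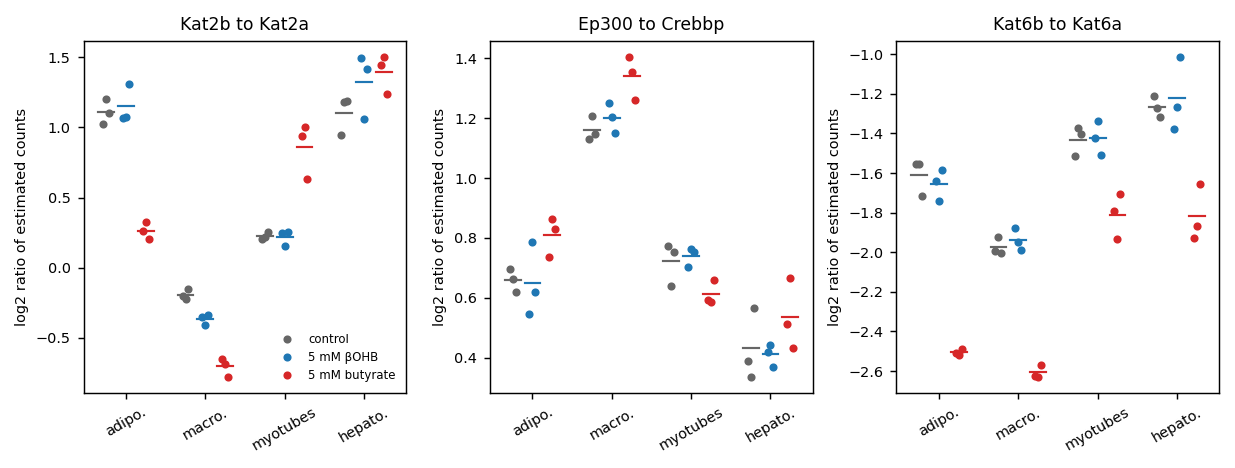
Log2 ratio of estimated counts within each library for 3 paralogous pairs; points are libraries, lines are means of 3, and colours are control, βOHB and butyrate. Kat6b to Kat6a is lower with butyrate in all 4 cell types, whereas Kat2b to Kat2a is lower in adipocytes (from 1.11 to 0.26) and macrophages and higher in myotubes (from 0.22 to 0.86) and hepatocytes.

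Acetyltransferases of this kind work inside complexes, and 98 further genes of those complexes and of neighbouring steps were followed in 9 lists. These lists were drawn up with earlier results of these data known. Of the 24 SAGA and ATAC partners of Kat2a and Kat2b, butyrate lowered 13, 10, 12 and 11 in adipocytes, macrophages, myotubes and hepatocytes and raised 7, 7, 4 and 6, with medians of -0.25, -0.094, -0.22 and -0.14. Of all tested genes it lowered 30.3% to 33.4% and raised 30.7% to 33.1%, by cell type. Taf9, a histone-fold subunit, rose in all 4 cell types, with log2 fold-changes of 1.62, 1.93, 1.02 and 2.37, from 2.86 CPM to 14.7 CPM on average in hepatocytes. Kat14, the second acetyltransferase of ATAC, fell in all 4 (-1.19, -1.48, -1.25 and -1.77), as did Atxn7, which anchors the deubiquitinase module of SAGA (-0.86, -0.90, -0.83 and -1.13), and Sgf29, which reads methylated H3 lysine 4 (-0.42, -0.53, -1.09 and -1.03).

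The partners of the MYST enzymes were lowered for the most part. Of 17 TIP60 partners, 14, 12, 13 and 11 fell and 2, 2, 0 and 3 rose, with medians of -0.59, -0.71, -0.60 and -0.56. The scaffold proteins Epc2 (-2.01, -1.99, -1.22 and -1.94) and Epc1 (-1.61, -1.80, -1.83 and -0.96) fell in all 4 cell types, and so did Yeats4, an acetyl-lysine reader (-1.33, -1.08, -1.33 and -1.88), and Meaf6 (-1.17, -0.71, -1.08 and -2.25), a small subunit shared with the MOZ, MORF and HBO1 complexes. Of 9 partners of MOZ, MORF and HBO1, 7, 8, 6 and 6 fell and 0, 1, 1 and 2 rose (medians -1.15, -0.71, -0.60 and -0.72). Brpf3, a scaffold of HBO1, fell in each cell type (-1.66, -2.12, -1.52 and -2.20), as did Jade2, another such scaffold (-1.25, -2.66, -0.35 and -2.44), and Ing5, a reader of methylated H3 lysine 4, fell throughout (-1.47, -1.59, -1.04 and -2.37).

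Of 12 partners of MOF in its MSL and NSL complexes, butyrate lowered 7, 8, 9 and 8 and raised 1, 1, 1 and 3, with medians of -0.55, -0.67, -0.45 and -0.58. Hcfc1, a large NSL subunit that also serves other complexes, fell in all 4 cell types, at -1.91, -2.15, -1.89 and -2.18. Mcrs1 (-1.48, -1.94, -1.54 and -2.15) and Kansl1 (-0.65, -1.05, -0.84 and -0.98) of NSL and Msl1 of MSL (-1.45, -1.16, -0.95 and -1.76) fell in all 4 cell types too. The share of all tested genes lowered by butyrate was 30.3% to 33.4% and the share raised 30.7% to 33.1%, as given above for each cell type.

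The lists outside these complexes were mixed. Of 14 other acetyltransferases, 7, 9, 6 and 2 fell and 6, 1, 1 and 10 rose (medians -0.18, -0.27, -0.16 and 0.26). Calls in opposite directions were found for Esco2, which acetylates cohesin (0.72, -0.29, -1.71 and 1.35), Ncoa1, a nuclear receptor coactivator (0.36, -0.59, 0.17 and 0.65), and Hat1, which acetylates newly made H4 (-0.30, 0.031, -0.13 and 0.71). In hepatocytes and in myotubes the proliferation markers given above moved with the Esco2 value. In adipocytes, where Esco2 rose, none of these markers was called. Their part in the Esco2 values was not tested. The Esco2 value of macrophages, the Hat1 values of macrophages and myotubes and the Ncoa1 value of myotubes did not pass the test. Of 9 recruiters and inhibitors of p300 and CBP, 2, 3, 3 and 3 fell and 2, 2, 3 and 3 rose. Of all tested genes butyrate lowered 30.3% to 33.4% and raised 30.7% to 33.1%, so these counts are no result about the list. Cited4, which binds p300 and CBP, was called higher in all 4 cell types, at means of 1.56, 0.81, 1.95 and 1.45 CPM beside 0.0997, 0.0766, 0.269 and 0.387 CPM in control, too few counts for a fold. Its relative Cited1 was called higher in all 4 as well, at means of 0.845, 0.36, 3.05 and 0.286 CPM beside 0.372, 0.0141, 2.2 and 0.0788 CPM in control. Atf1, a CREB-family factor, fell (-1.05, -1.17, -1.07 and -1.37).

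Among 8 acetyl-lysine readers, 4, 4, 5 and 5 fell and 2, 2, 1 and 1 rose (medians -0.24, -0.21, -0.30 and -0.44). Brd9 (-1.23, -1.51, -1.17 and -1.77), Bptf (-0.77, -0.92, -0.72 and -0.73) and Brd2 (-0.97, -0.38, -0.32 and -0.76) fell in all 4 cell types, and Mllt3, a YEATS protein, rose in adipocytes, macrophages and hepatocytes and fell in myotubes (1.10, 0.77, -0.64 and 1.39). Of 5 genes of acetyl-CoA supply, 1, 1, 1 and 2 fell and 2, 1, 3 and 2 rose. Of all tested genes 30.3% to 33.4% fell and 30.7% to 33.1% rose, so these small counts are no result about the list. Acss2, which makes acetyl-CoA from acetate, rose in all 4 cell types (0.55, 2.66, 0.91 and 1.49), from 3.74 CPM to 23.8 CPM on average in macrophages. Pdha1, a pyruvate dehydrogenase subunit, fell slightly (-0.29, -0.25, -0.21 and -0.61), and Slc25a1, the mitochondrial citrate carrier, fell in hepatocytes and rose in myotubes (0.17, 0.20, 0.42 and -0.43, of which the values of adipocytes and macrophages did not pass). Of the 4 class I deacetylases, 0, 1, 0 and 1 fell and 2, 2, 2 and 3 rose: Hdac1 (0.80, 0.83, 0.74 and 0.32) and Hdac3 (0.59, 0.68, 0.18 and 0.67) rose throughout.

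**Figure D5:**
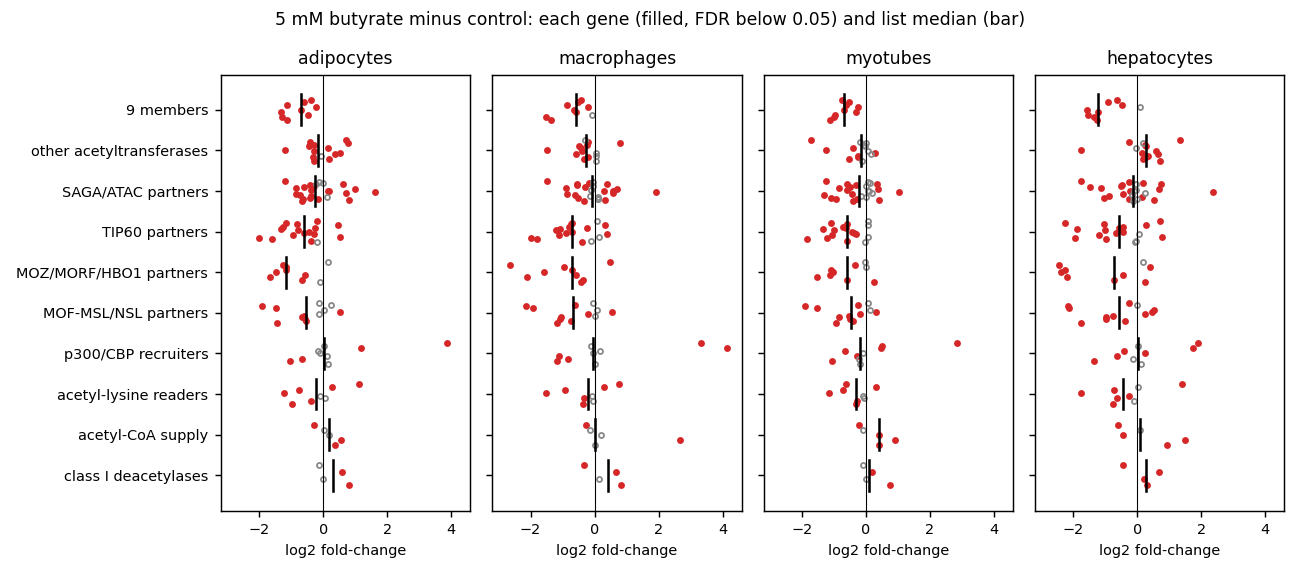
Log2 fold-change with butyrate for the 9 genes and for each partner list, by cell type; each point is a gene, filled where the FDR is below 0.05, and the bar is the list median. The medians of the 9 genes and of the 3 lists of MYST partners lie below 0 in each cell type, from -0.45 to -1.24, and those of the class I deacetylases lie above 0.

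Under βOHB 3 of the 98 partner genes passed the test, all in myotubes, where 2.91% of all tested genes did, so the count is near the background and is no result about the partners. Esco2 held 0.508 CPM with βOHB beside 1.57 CPM in control (-1.61 ± 0.39, FDR = 0.014), Jade2 2.14 CPM beside 3.79 CPM (-0.82 ± 0.13, FDR = 0.000278), and Brd3, a BET-family reader, 146 CPM beside 127 CPM (0.20 ± 0.052, FDR = 0.0259). In the same libraries the markers of proliferating cells summed to 33.8 to 73.5 CPM in control and 20.5 to 25.6 CPM with βOHB, and the macrophage and hepatocyte markers to the values given above. Their part in these 3 results was not tested.

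The gene whose pattern over the 12 group means of log2 CPM was most like that of a member was chosen by Pearson's r among all tested genes, as a description without a test, since the 12 points share libraries and controls. For Ep300 it was Baz2b (r = 0.991), for Crebbp Zfp628 (r = 0.984), for Kat2a Dmac2 (r = 0.933) and for Kat2b Gorasp2 (r = 0.968). Of the MYST genes, Kat5 was matched by Usf2 (r = 0.967), Kat6a by Depdc1a (r = 0.986), Kat6b by Btbd19 (r = 0.962), Kat7 by Nrde2 (r = 0.990) and Kat8 by Rpap2 (r = 0.989). Between members, r ranged from -0.57 for Kat2b and Kat6a to 0.97 for Kat5 and Kat7.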

How the data were processed

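RNA was sequenced from 36 libraries (random-primed, paired reads of 150 bases on a BGISEQ-500). The authors quantified reads on GENCODE M25 transcripts with Salmon 1.2.1 and summarised them per gene with tximport, and the deposited values are estimated counts, not normalised, which were rounded to whole numbers here. Genes above 1 CPM in at least 6 libraries were kept (15340). The fit was edgeR 4.0.16 in R 4.3.3 (quasi-likelihood test, TMM scaling, 1 mean for each of 12 groups), called at a Benjamini-Hochberg FDR below 0.05 over all kept genes. It pools the spread over cell types, and the biological coefficient of variation was 0.0462 to 0.111 by cell type, largest in myotubes. Paralogue ratios were tested by exact permutation, with 0.5 added to each count. Limma-voom (limma 3.58.1) and DESeq2 1.42.0 were alternatives, beside other scalings, filters, sample sets and leaving out each library. The fit was tested on simulated data. Positions come from GENCODE M21.

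The members and lists were chosen with earlier results of these data known. All 9 members are named. From each partner list up to 4 genes are named: first those called with butyrate in 1 direction in all 4 cell types, by mean log2 fold-change, then those called in opposite directions, by range. List genes called with βOHB, and for each member the gene with the highest correlation, are named too. Same-numbered libraries of a cell type were compared for pairing: of 36 pairs, 4 had deviations correlated above 0.1 (r from -0.26 to 0.27), so the numbers were not taken as pairs.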

Additional observations from a re-analysis of the deposited data

Results flagged for a closer look

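The butyrate response of 6 members differed between cell types by the edgeR interaction test, and the distance between the most and the least lowered cell type is given on the log2 scale. For Kat2a it was 1.45 between hepatocytes and macrophages, for Kat2b 1.01 between adipocytes and myotubes, and for Kat5 0.93 between hepatocytes and macrophages. Kat6b differed by 0.66 between adipocytes and hepatocytes, Crebbp by 0.52 between macrophages and myotubes, and Kat7 by 0.40 between hepatocytes and macrophages. The interaction called 74.5% of all tested genes, so such a difference was common. The log2 ratio of Kat2b to Kat2a moved down with butyrate in every adipocyte library and up in every myotube library, and the 2 shifts lay 1.48 apart. This difference was not tested.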

How the results depend on the processing

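Counts of members lowered by butyrate were within 1.5 times the reported ones under every alternative run. With library totals alone, 3 values changed sign: Kat6a with butyrate in macrophages (0.0059), and Kat7 in control hepatocytes against adipocytes (-0.017) and against myotubes (-0.0019). At the study's threshold of an unadjusted p below 0.001, butyrate against control called 7 members in macrophages and 8 in myotubes, where the FDR called 8 and 9. For the response set against the mean of the other 3 cell types, 2 were called in macrophages and 2 in myotubes. The FDR called 4 and 4 there. Between control myotubes and adipocytes 1 was called, where the FDR called 3. The Ep300 to Crebbp shift passed with the median over cell types (0.13, exact permutation p = 0.00539) and ranged from 0.066 to 0.099 (exact permutation p from 0.0235 to 0.103) when single libraries were left out. The cause was not tested. With the replicate block the Kat6b to Kat6a shift was -0.61 (exact permutation p = 0.000488), and the block changed 0 of 228 calls. Same-numbered libraries did not deviate together. Over the fits that each left out 1 library, a single-gene call was lost 26 times and gained 26 times, counting a gene again for each library that changed its call. The members received 128 to 5502 estimated counts in a library, lowest for Kat5 in hepatocytes with butyrate.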
